A study of Gallus gallus and Dromaius novaehollandiae and Alligator mississippiensis with 60 samples.

Results

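The epidermis of chicken reticulate scales was compared with that of chicken scutate scales. The small rounded reticulate scales cover the underside of a bird's foot, and the large scutate scales form overlapping plates on its front. The members were chosen by their labels, as the 4 reticulate and 4 scutate epidermis libraries of chicken, which are 8 of the 60 libraries of a series on embryonic skin appendages in chicken, emu and alligator. Reticulate epidermis came from Hamburger and Hamilton stage 39 at placode, when the epidermis first thickens, and from stage 40 at morphogenesis, when the scale takes shape. Scutate epidermis came from stage 37 at placode and stage 40 at morphogenesis. Each of these 4 groups held 2 libraries, and the titles give each of the 8 its own specimen number. The eggs were incubated at 37.8 °C and the epidermis was parted from the dermis with dispase. Strain is not given in the labels. The placode groups differ in age as well as in scale, so age and scale cannot be told apart there, while the morphogenesis groups have the same stage.

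Both kinds of scale form on the foot but differ in shape and covering. Scutate scales arise from a clear placode, grow asymmetrically so that one overlaps the next, and carry a hard outer face rich in corneous beta-proteins (the beta-keratins of older work). Reticulate scales form later, stay radially symmetric, and are covered mainly by alpha-keratins. The sides of the limb on which they form are patterned by signals of the early ectoderm, among them the ventral factor Engrailed-1 and the dorsal ligand Wnt7a.

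The deposited table names genes by chicken Ensembl identifier only, and 0 of its 17889 identifiers matched the reference used here, so no gene below carries a name, a chromosome or a known role. For the same reason epidermal marker genes could not be read by name. Genes enriched in either layer were instead taken from chicken feather and claw libraries, which lie outside the comparison. At both placode and morphogenesis, the embryos of those libraries were younger than those of the scales. The 159 epidermis-enriched genes summed to 25989 to 37489 TPM (a level set against both the length of the gene and the total of the library) in reticulate epidermis and to 19910 to 36694 TPM in scutate epidermis, against 572 to 1149 TPM in the 4 dermis libraries of the same scales. The 181 dermis-enriched genes summed to 1325 to 2518 TPM in reticulate and 1413 to 2559 TPM in scutate epidermis, against 32267 to 90595 TPM in that dermis. Each epidermis library thus held far more of the first group and far less of the second than any of the dermis libraries. TPM keeps no read depth, so the depth is unknown, and from 10860 to 11254 genes reached 1 TPM in a library.

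On the principal components, the libraries were ordered first by stage and second by scale. The first principal component of the 11753 genes tested (at least 1 TPM in at least 2 of the 8 libraries) held 49.2% of the variance. Reticulate libraries lay at -4.37 and -21.16 at placode and at 27.51 and 48.13 at morphogenesis. Scutate libraries lay at -64.37 and -42.26 at placode and at 44.34 and 12.19 at morphogenesis, so the reticulate placodes of stage 39 lay between the scutate libraries of stages 37 and 40. On the second component, with 21.6% of the variance, the reticulate libraries lay between 13.96 and 31.2 and the scutate libraries between -38.4 and -13.65. Over all genes, single libraries of the 2 scales differed by a root mean square of 0.706 on the log2 scale at placode and 0.66 at morphogenesis. Replicates differed by 0.475 and 0.529 in reticulate scale (placode, then morphogenesis), and by 0.498 and 0.552 in scutate scale. The step between stages measured 0.674 in reticulate scale, below the 0.706 between the scales at placode, and 0.874 in scutate scale. Replicates 1 and 2 of scutate scale at morphogenesis lay farther apart on the first component than those of any of the other 3 groups.

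**Figure D1:**
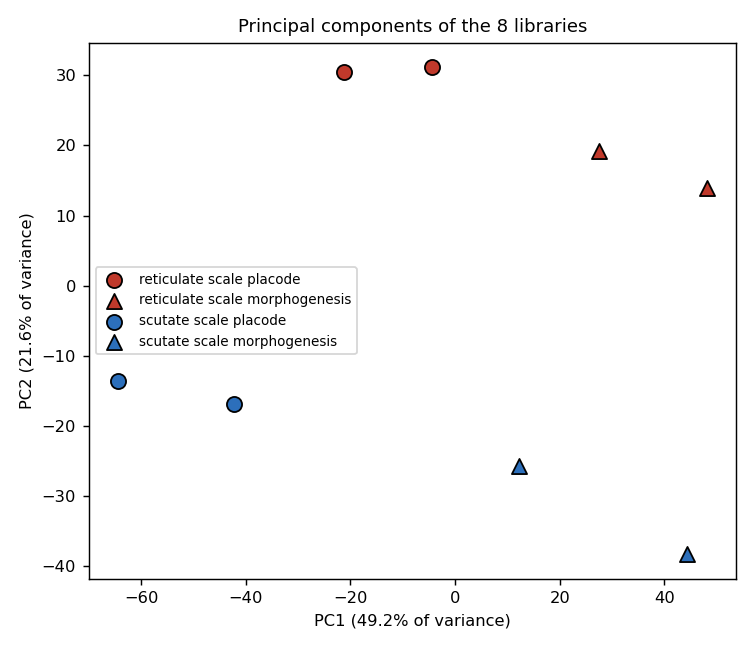
First and second principal components of log2(TPM + 1) in the 8 libraries, with the variance held by each component on its axis. Reticulate libraries (red) all lie above 0 and scutate libraries (blue) all below 0 on the second component, and the placode libraries (circles) lie left of the morphogenesis libraries (triangles) on the first.

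With stage as a term, 427 of 11753 genes differed between the scales (limma on log2(TPM + 1), Benjamini-Hochberg adjusted p under 0.05, 3.63% of the genes tested). The term marks placode or morphogenesis only, so these differences, and all readings of these genes below, still hold the age gap between the scales at placode. Of these, 245 were higher in reticulate scale (2.08%) and 182 lower (1.55%). Most of them differed by 2-fold or more, and 37 of the higher and 30 of the lower genes by 4-fold or more. In each of the 427 genes both reticulate libraries lay on the same side of both scutate libraries at placode and again at morphogenesis. That held for 8.59% (higher) and 10.5% (lower) of all genes tested. The calls were made on the same libraries, so this separation is largely set by the choice of genes and is no support for the calls. All 4 reticulate libraries lay above all 4 scutate libraries in 178 of the higher genes, and below them in 143 of the lower genes. For this stricter separation the share of all genes tested was not counted, so the counts are a description of the called genes only. The higher genes together made up 2.03% to 2.66% of the listed total in reticulate libraries and 0.77% to 1.26% in scutate libraries, and the lower genes 0.59% to 0.7% in reticulate and 1.07% to 1.39% in scutate libraries. In such bulk tissue, fewer cells of a type and less RNA per cell cannot be told apart. Differences occurred at every level of expression, in 3.58% of genes with a mean under 5 TPM, 4.37% from 5 to 20 TPM, 3.38% from 20 to 100 TPM and 2.96% at 100 TPM or more. The count was 203 without reticulate placode replicate 1, 206 without reticulate placode replicate 2 and 232 without scutate morphogenesis replicate 2. Without scutate placode replicate 2, 105 genes were higher and 84 lower (1.62% of those tested). The excess of higher genes was lost without scutate morphogenesis replicate 1, with 240 higher and 246 lower. It was also lost with all 20 chicken epidermis libraries in the fit, which called 1465 genes, 712 higher and 753 lower.

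A pair of identifiers stood far apart from all others on the reticulate side. ENSGALG00000023155 stood at 887 and 480.4 TPM in reticulate placodes and at 1123 and 908 TPM in reticulate scales at morphogenesis. In scutate placodes it was listed at 0 and at 1.57 TPM, and in scutate scales at morphogenesis at 3.4 and 0.533 TPM. Every reticulate library lay far above every scutate library, at both stages. The log2 difference was 8.64 (SE 0.4, adjusted p = 9.4e-05) with stage as a term. It was 8.67 at placode and 8.6 at morphogenesis (SE 0.61 each, adjusted p = 0.0031 and 0.0041). ENSGALG00000012120 stood at 387 and 263 TPM in reticulate placodes and at 360.3 and 355 TPM at morphogenesis. Scutate placodes had 0 and 1.11 TPM, and scutate scales at morphogenesis 0.207 and 0.488 TPM. The scales did not overlap at either stage, and this gene had the smallest adjusted p of all genes tested (log2 difference 7.92, SE 0.24, adjusted p = 5.8e-06).

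In the epidermis, both transcripts were also abundant in claw and nearly absent from feather. The claw and feather embryos were younger than those of the scales when placode is set against placode and morphogenesis against morphogenesis. ENSGALG00000023155 stood at 60.5 and 85.8 TPM in claw placodes and at 338 and 166 TPM in claws at morphogenesis, below every reticulate library. In the 8 feather epidermis libraries it ranged from 0 to 3.94 TPM, close to the range of scutate scale. ENSGALG00000012120 stood at 492 and 146 TPM in claw placodes and at 290.2 and 229.6 TPM in claws at morphogenesis. Claw and reticulate levels thus overlapped, and feather epidermis held 0 to 0.182 TPM. In the dermis, with 1 library a group, the order of the second gene was turned round. Reticulate dermis had 3.58 TPM at placode and 8.73 TPM at morphogenesis, against 26.9 and 33.8 TPM in scutate dermis. ENSGALG00000023155 was low in these dermis libraries, with 0.801 and 8.81 TPM under reticulate scale against 0.913 and 5.19 TPM under scutate scale. Feather dermis, unlike feather epidermis, held 16.5 to 38 TPM of ENSGALG00000012120, and it held 1.61 to 20.2 TPM of ENSGALG00000023155.

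The 10 genes that followed on the reticulate side had log2 differences between 4.8 and 2.77. Their means over the 4 libraries of a scale ran from 13.4 to 721 TPM in reticulate and from 0.811 to 43.8 TPM in scutate epidermis, with adjusted p-values from 6e-04 to 0.013. None came near the leading pair in size.

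On the scutate side, ENSGALG00000024136 and ENSGALG00000019647 had the largest differences with stage as a term among the called genes whose libraries were apart at both stages. ENSGALG00000024136 stood at 0.617 and 0.335 TPM in reticulate placodes and at 0.277 and 0 TPM in reticulate scales at morphogenesis. Scutate placodes had 8.43 and 7.86 TPM, and scutate scales at morphogenesis 124.5 and 45.3 TPM. The groups did not overlap: the transcript stayed under 1 TPM in every reticulate library, while all 4 scutate libraries lay above it. The log2 difference was -4.36 (SE 0.67, adjusted p = 0.013). In claw epidermis it was higher than in either scale, from 127 to 872 TPM, and feather epidermis held 6.86 to 25.3 TPM. The reticulate scale thus had the lowest epidermal level of the appendages. ENSGALG00000019647 stood at 1.77 and 4.48 TPM in reticulate placodes and at 0.236 and 0.309 TPM at morphogenesis, against 78.2 and 35.5 TPM in scutate placodes and 18.6 and 17.6 TPM in scutate scales at morphogenesis. It differed by -3.85 (SE 0.29, adjusted p = 0.00081) and was lower at morphogenesis than at placode in both scales. Claw epidermis held 75.4 to 187 TPM and feather epidermis 0.0517 to 1.21 TPM. In the epidermis this gene thus set scutate scale and claw apart from reticulate scale and feather. The next 10 genes on this side had log2 differences between -3.49 and -2.76, with means from 0.0126 to 28.1 TPM in reticulate and from 10.1 to 233 TPM in scutate epidermis.

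**Figure D2:**
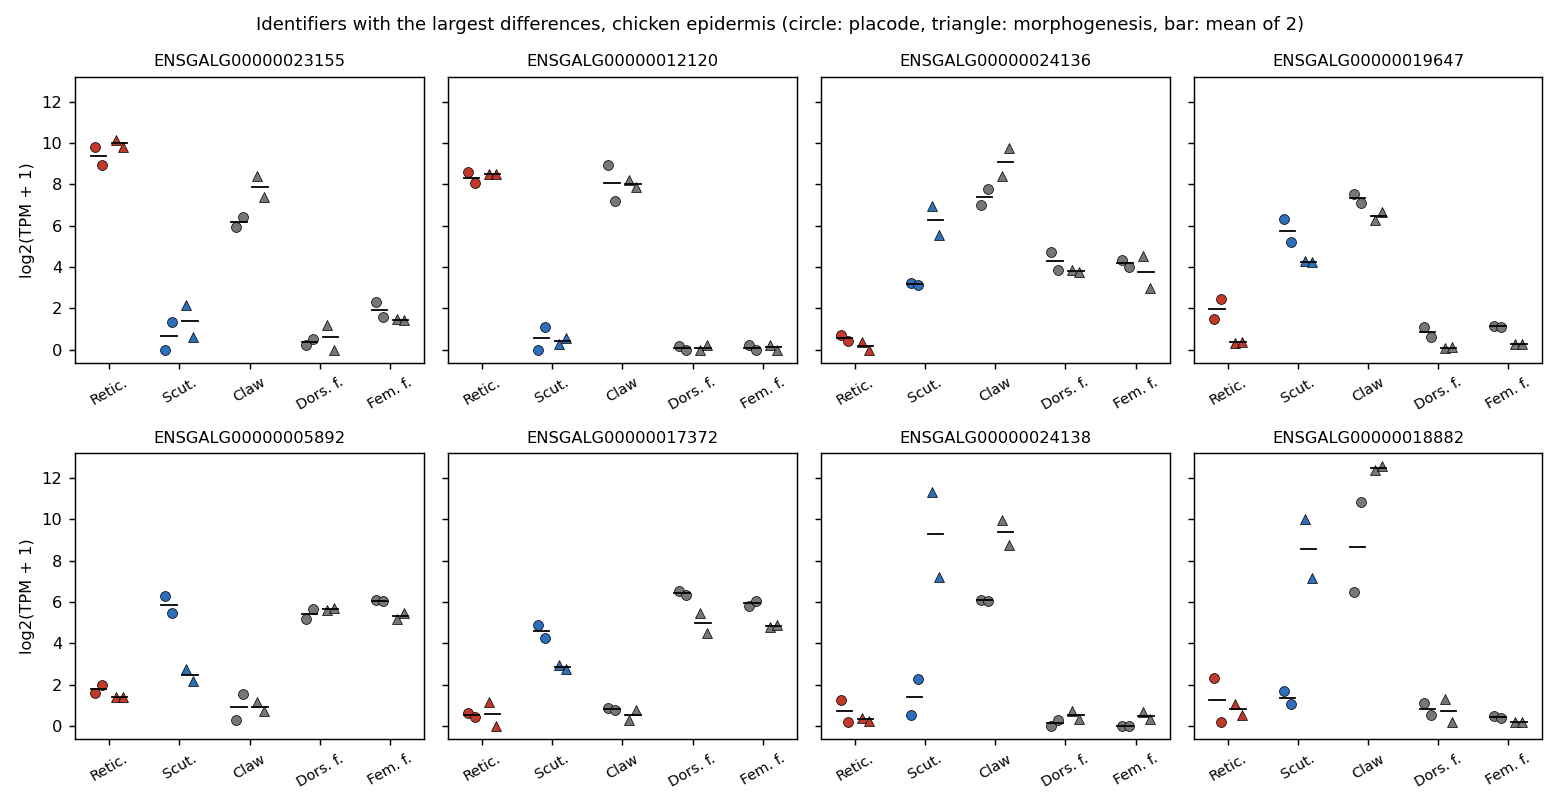
Levels, as log2(TPM + 1), of the 8 identifiers named in the text in every chicken epidermis library of reticulate scale (red), scutate scale (blue), claw, dorsal feather and femoral feather (grey), with circles for placode, triangles for morphogenesis and a bar at the mean of 2 libraries. The first 2 panels are high in reticulate scale and claw, ENSGALG00000005892 and ENSGALG00000017372 are high in scutate placode and feather, and the last 2 panels are high in claw and in scutate scale at morphogenesis.

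At placode, where reticulate scale was the older, 350 genes differed (2.98% of those tested), 201 higher (1.71%) and 149 lower (1.27%) in reticulate scale. Differences reached 2-fold in 173 and 132 of them and 4-fold in 75 and 68. ENSGALG00000023155 and ENSGALG00000012120 again led the higher genes. The lower genes were led by ENSGALG00000005892, at 2.02 and 2.91 TPM in reticulate placodes against 76.5 and 42.9 TPM in scutate placodes (log2 difference -4.08, SE 0.34, adjusted p = 0.0034). The groups did not overlap, but the scutate level was itself low at stage 40, at 5.83 and 3.46 TPM, against 1.62 and 1.67 TPM in reticulate scale of that stage. Set against those older scutate libraries, the reticulate placodes differed by -0.68 (adjusted p = 0.28), so the direction remained and the call did not. Feather epidermis held 34.8 to 66.7 TPM of this gene and claw epidermis 0.226 to 1.92 TPM. In the dermis, with 1 library a group, the order was turned round. It stood there at 39.6 TPM under reticulate and 0.841 TPM under scutate placodes, and at morphogenesis at 40.9 and 10.2 TPM. ENSGALG00000017372 stood at 0.548 and 0.358 TPM in reticulate placodes against 28.5 and 18.3 TPM in scutate placodes (log2 difference -4.04, SE 0.41, adjusted p = 0.0046). At morphogenesis it stood at 1.23 and 0 TPM in reticulate and 6.63 and 5.75 TPM in scutate scale. Its levels in feather epidermis, 21.5 to 92.2 TPM, lay above most scutate values. Those in claw epidermis, 0.24 to 0.855 TPM, lay within the reticulate range. The count of 350 was 31 without reticulate placode replicate 1, 67 without reticulate placode replicate 2 and 84 without scutate placode replicate 1. ENSGALG00000017372 had an adjusted p of 0.059 with a pseudocount of 0.1 TPM and 0.054 without reticulate placode replicate 1.

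Taking the scutate scale of stage 40 as the reference put the reticulate placode of stage 39 on the younger side of the comparison. It also set placode against morphogenesis, so age, morphogenesis and scale cannot be told apart there. This contrast, which shares the reticulate placode libraries, called 534 genes, 370 of them higher in reticulate scale. Of the 201 genes called higher at placode, 150 lay above all 4 scutate libraries of both ages in both reticulate placode libraries, and 90 of the 149 called lower lay below all 4. Over all genes tested 11.1% lay above and 10% below. These shares are given as a description, because the calls used the same placode libraries.

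At morphogenesis, where the stages were equal, 119 genes differed (1.01%), 70 higher (0.596%) and 49 lower (0.417%) in reticulate scale. All but 6 of the higher and 4 of the lower genes differed by 2-fold or more. The leading pair was the same on the reticulate side. Among the called genes whose groups did not overlap at this stage, ENSGALG00000024138 and ENSGALG00000018882 led the other side. At placode both were under 5 TPM in all 4 libraries. ENSGALG00000024138 stood at 0.305 and 0.2 TPM in reticulate scales, against 2592 and 147 TPM in scutate scales. At placode it had 1.36 and 0.148 TPM in reticulate and 0.422 and 3.76 TPM in scutate scale, with the groups overlapping. The log2 difference at morphogenesis was -8.95 (SE 1.28, adjusted p = 0.036). ENSGALG00000018882 stood at 1.06 and 0.464 TPM in reticulate scales against 1025 and 141 TPM in scutate scales (log2 difference -7.78, SE 0.99, adjusted p = 0.022), and at 0.147 to 4.06 TPM in all 4 placode libraries. In both genes scutate replicate 1 was far above replicate 2, which itself was far above every reticulate library. Claw epidermis at morphogenesis held 995 and 439 TPM of ENSGALG00000024138, and 5446 and 6031 TPM of ENSGALG00000018882. No feather epidermis library exceeded 1.5 TPM of either.

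The calls at morphogenesis rested on few libraries. The labels put reticulate replicate 1 and scutate replicate 1 in lane 8 and reticulate replicate 2 in lane 1. They give no lane for scutate replicate 2 or the placode libraries, and an effect of lane was not tested. The count of 119 was 14 without reticulate morphogenesis replicate 2, 52 without its replicate 1, 23 without scutate morphogenesis replicate 1 and 30 without its replicate 2. It was 66 without either of the reticulate placode libraries, which enter the common estimate of spread. Of 18 alternatives each, other settings and left-out libraries together, ENSGALG00000024138 kept its call in only 10 and ENSGALG00000018882 in only 12. Their log2 differences ran from -11.02 to -6.88 and from -9.2 to -6.36, with the direction kept in each alternative. The adjusted p of ENSGALG00000023155 at morphogenesis was 0.06 with a pseudocount of 0.1 TPM.

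The test of the morphogenesis contrast minus the placode contrast called 0 genes in limma with the 8 libraries, with 889 at an unadjusted p under 0.05. It called 36 when all 20 chicken epidermis libraries shared the estimate of spread. For ENSGALG00000024138 and ENSGALG00000018882 the contrast changed by -8.29 (SE 1.8, adjusted p = 0.37) and -7.68 (SE 1.4, adjusted p = 0.34). For the leading reticulate pair it changed by -0.07 (SE 0.86) and 0.28 (SE 0.5). Without scutate placode replicate 2 the count was 10. Called at both stages in the same direction were 47 genes higher and 24 lower in reticulate scale. These are 23.4% and 16.1% of the placode calls and 67.1% and 49% of the morphogenesis calls. Over all genes tested, 1.71% were called higher and 1.27% lower at placode, and 0.596% and 0.417% at morphogenesis. With shares this low, hardly any gene would be called in opposite directions in any case. The 0 genes called in opposite directions are thus near the background. The 2 contrasts used different libraries but shared the estimate of spread.

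**Figure D3:**
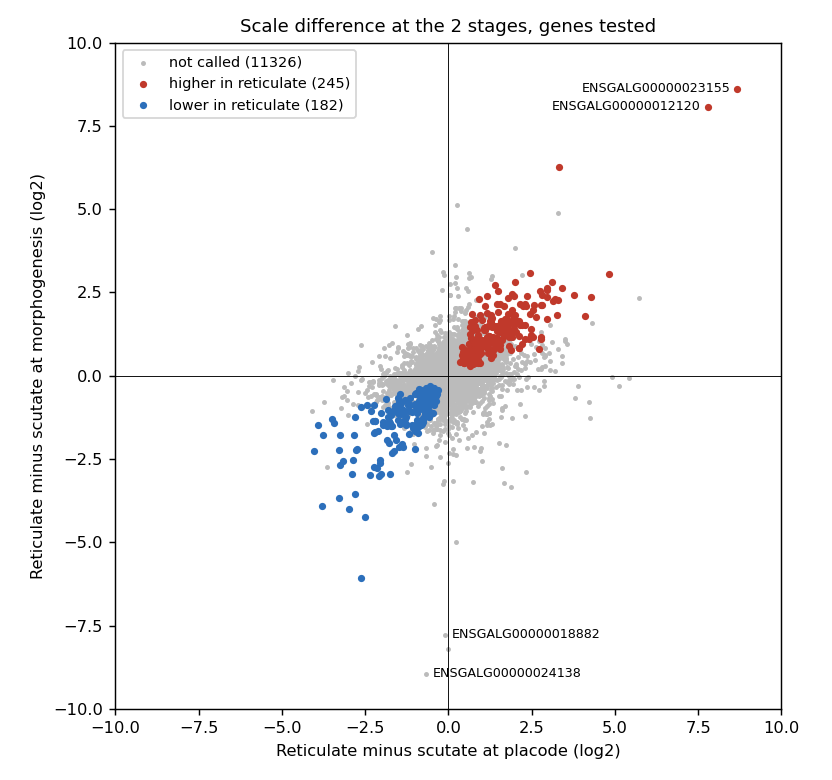
Reticulate minus scutate log2 difference at placode (horizontal axis) and at morphogenesis (vertical axis) for the 11753 genes tested, with the 245 genes called higher (red) and the 182 called lower (blue) in reticulate scale with stage as a term. The leading pair lies at about 8 on both axes, and the pair with high values in scutate scale at morphogenesis lies near 0 on the horizontal axis.

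Claw and feather epidermis, which took no part in the fit, showed where the differing genes lay among the appendages. Among the claw and feather libraries, feather placodes came from the youngest embryos. Feathers at morphogenesis and claw placodes shared a later stage, still before stage 37. Claws at morphogenesis came from between stages 37 and 39. Both appendages were thus younger than the scales at placode and at morphogenesis, so age and appendage cannot be told apart here. Among the 245 genes higher in reticulate scale, the reticulate mean was the highest of the 4 kinds of appendage in 195 genes (79.6%), claw in 31 and feather in 19. Among the 182 lower genes, feather was highest in 88 (48.4%), scutate scale in 68 and claw in 26, and reticulate scale was the lowest of the 4 in 108 (59.3%). Over all genes tested, reticulate scale was highest in 23.4%, scutate scale in 14.1%, claw in 15.5% and feather in 46.9%. Reticulate scale was the lowest in 14.9% of all genes tested and claw in 61.1%. A part of these counts is fixed by the choice of genes, since a gene called higher in reticulate scale cannot be highest in scutate scale. The claw level was nearer the reticulate than the scutate level in 28.6% of the higher genes, 60.4% of the lower genes and 54.7% of all genes tested. The feather level was nearer the reticulate level in 30.2%, 21.4% and 32.4%. Claw and feather both sat nearer scutate scale in 119 of the 245 higher genes (48.6%, against 29% of all genes). The pattern of the leading pair, with claw nearer reticulate scale and feather nearer scutate scale, was found in 52 of the 245 (21.2%, against 38.6% of all genes). The reticulate and scutate levels used here also chose the genes, so the shares of nearness are in part fixed by that choice. These shares carry no test.

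**Figure D4:**
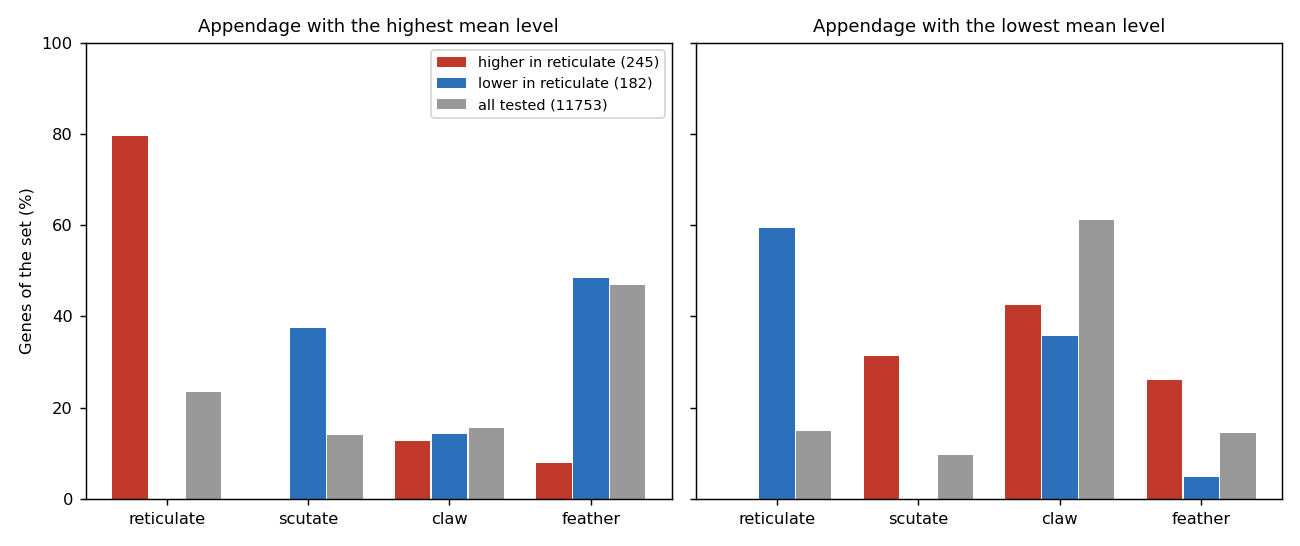
Share of genes, in percent, whose mean log2(TPM + 1) over both stages was the highest (left) or the lowest (right) in reticulate scale, scutate scale, claw or feather epidermis of chicken. Bars give the 245 genes higher in reticulate scale (red), the 182 lower (blue) and all 11753 genes tested (grey), and the red bar reaches 79.6% for reticulate scale on the left.

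Gene groups defined in feather and claw libraries had medians farther from 0 at placode than at morphogenesis. The 207 genes at least 4-fold higher in claw than in feather at both stages had a median difference, reticulate minus scutate, of 0.77 on the log2 scale at placode and 0.05 at morphogenesis. With stage as a term 20 of them were called higher and 5 lower in reticulate scale (9.66% and 2.42%), against 2.08% and 1.55% of all genes tested. The 273 genes at least 4-fold higher in feather than in claw had medians of -0.31 at placode and -0.09 at morphogenesis, and 9 were called higher and 22 lower (3.3% and 8.06%, against the same 2.08% and 1.55%). The 57 genes that were at least 2-fold higher at morphogenesis than at placode in dorsal feather, femoral feather and claw had medians of 1.15 and 0.06, with 8 called higher at placode and 0 lower, and 0 called at morphogenesis. Over all genes tested 1.71% were called higher and 1.27% lower at placode, and 0.596% and 0.417% at morphogenesis, so 0 calls among 57 genes at morphogenesis is near the background. The 78 genes that were at least 2-fold lower at morphogenesis in the same 3 appendages had medians of -0.53 and 0, with 1 called higher and 5 lower at placode. The medians of all genes tested were -0.03 and -0.04. Without scutate placode replicate 1 the placode medians were 0.66 for the rising, -0.16 for the falling and -0.08 for the feather-high genes. Without reticulate placode replicate 1 they were 0.48 for the claw-high and -0.2 for the feather-high genes, and without scutate placode replicate 2 -0.52 for the feather-high genes. The stage groups overlap with the appendage groups, with 25 genes shared by the claw-high and the rising groups and 23 by the feather-high and the falling groups.

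These medians at placode turned round when the reference was scutate scale at stage 40, which is both older and at morphogenesis. Age, morphogenesis and scale cannot be told apart in that contrast. The rising and falling groups were defined by morphogenesis against placode, so the turn of their sign is no separate result about age. Against scutate scale at stage 40, the reticulate placode had a median of -1.08 for the rising genes, 0.89 for the falling genes, -0.78 for the claw-high genes and 0.91 for the feather-high genes. The rising genes summed to 5990 and 3891 TPM in reticulate placodes (stage 39) and to 915 and 1812 TPM in scutate placodes (stage 37). At stage 40 they summed to 10699 and 18452 TPM in reticulate scale and to 15711 and 8535 TPM in scutate scale, where the groups overlapped. Epidermis-enriched genes had medians of 0.31 at placode and 0.07 at morphogenesis, and of -0.15 for the reticulate placode against scutate scale at stage 40. With stage as a term 7 of them were called higher and 3 lower (4.4% and 1.89%, against 2.08% and 1.55% of all genes tested). Dermis-enriched genes had medians of 0.12 and -0.02, with 10 called higher and 9 lower (5.52% and 4.97%), above the share of all genes in both directions. Their placode median was -0.01 under quantile scaling, 0.25 without scutate placode replicate 1 and 0.06 without reticulate placode replicate 1. The groups were chosen after symbols were found to be missing, so their counts and medians are given without a test.

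**Figure D5:**
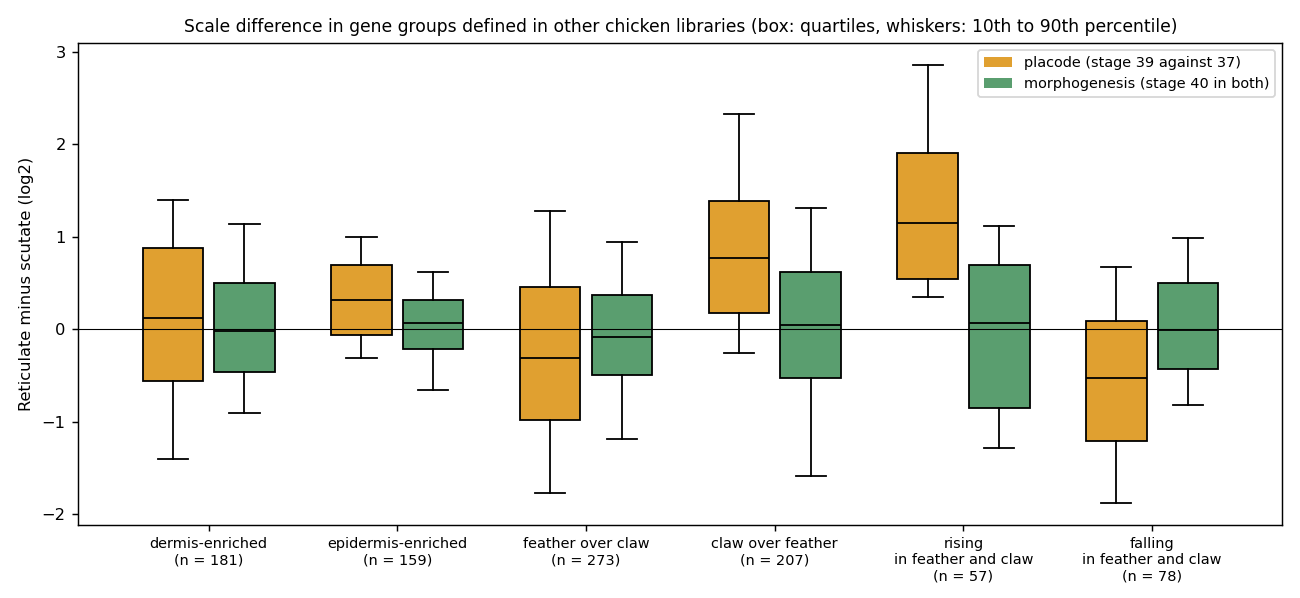
Reticulate minus scutate log2 difference at placode (orange) and morphogenesis (green) for 6 gene groups defined in other chicken libraries, with boxes at the quartiles, a line at the median and whiskers from the 10th to the 90th percentile of genes. The genes rising with stage and those higher in claw lie above 0 at placode (medians 1.15 and 0.77) and around 0 at morphogenesis.

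Emu and dermis libraries gave further readings of the same genes. The emu eggs were incubated at 35.5 °C, against 37.8 °C in chicken. In emu and in the chicken dermis, reticulate placodes came from stage 39 and scutate placodes from stage 37. Both scales came from stage 40 at morphogenesis. The placode part of these readings thus holds the same age gap as the chicken epidermis, and age and scale cannot be told apart there. An emu value was present for 131 of the 245 higher genes (53.5%), 63.7% of the 182 lower genes and 58.3% of all genes tested, and was absent for the leading reticulate pair. Among genes that reached 1 TPM in an emu scale library, 68 of 119 genes higher in chicken reticulate scale were also higher in emu reticulate scale at morphogenesis (57.1%, against 38.8% of 6420 genes), and 63 were higher at both stages (52.9%, against 27.9%). Of 112 genes lower in chicken reticulate scale, 80 were lower in emu at morphogenesis (71.4%, against 61.2%), and 66 at both stages (58.9%, against 36.9%). The median emu difference at morphogenesis was 0.15 for the higher and -0.3 for the lower genes, against -0.1 for all. Emu reticulate scale at placode was a single library, and emu reticulate libraries ran in lane 1 and scutate libraries in lane 2, so in that species the scale cannot be told apart from the lane. Of the named genes, ENSGALG00000019647 had 24.8 TPM at placode and 21.9 and 24.3 TPM at morphogenesis in emu reticulate scale, against 22 and 21.1 TPM and 22.3 and 20.4 TPM in emu scutate scale, without the gap seen in chicken. ENSGALG00000005892 had 32.6 TPM in the emu reticulate placode against 19.9 and 23.9 TPM in scutate placodes, the reverse of chicken, and 16.9 and 18.2 TPM in emu reticulate scale against 31.9 and 21.7 TPM in scutate scale at morphogenesis. In the chicken dermis, 115 of 225 genes higher in reticulate epidermis were also higher under reticulate scale at both stages (51.1%, against 27.6% of 11205 genes), and 34 were lower at both (15.1%, against 21.9%). Of 172 genes lower in reticulate epidermis, 48 were lower in the dermis at both stages (27.9%, against 21.9%) and as many, 48, were higher at both (27.9%, against 27.6%). The lower genes were thus split evenly among those with the same direction at both stages, while over all genes more were higher than lower. The remaining lower genes did not keep the same direction. The median dermis difference of the lower genes was -0.23 at placode and 0.13 at morphogenesis, against -0.12 and 0.18 for all genes. Each dermis library shares its specimen with an epidermis library of the comparison, so these are not independent embryos, and RNA carried over between the layers was not tested.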

How the data were processed

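The authors deposited TPM values for 17889 genes in 60 libraries. Epidermis was peeled from dermis after dispase (10 mg/mL, 4 °C, 13 h) and polyadenylated RNA was sequenced with the strand kept, per the labels' protocols. CASAVA, TopHat2 2.0.6 and HTSeq 0.5.3p9 are listed, without roles, per the submitters' processing notes. Not given in the sources used here are the genome build, the annotation and how the emu columns were rescaled. TPM sets each gene against the library total, so abundant genes shift all others.

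The 8 libraries were fitted with limma 3.58.1 (R 4.3.3) on log2(TPM + 1), with scale and stage as additive terms, or with a mean for each of the 4 groups for contrasts within a stage and between stages. The variance was moderated with eBayes (trend and robust), and p-values were adjusted after Benjamini-Hochberg over all 11753 genes. Tests are two-sided, and a called gene has an adjusted p under 0.05. Folds are therefore those of TPM + 1, smaller than the change in TPM where a gene is low. Scripts were tested on simulated data. The labels' replicates are separate specimens, but the p-values speak only of the spread among these libraries, of which 0 pairs were identical.

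For lack of symbols, 32 gene lists fixed in advance could not be applied, and at most 2 identifiers each way are named in each comparison: the called genes with the largest difference whose groups do not overlap at the stages compared. Whether transcripts of near-identical copies were told apart in the deposited values is not known from the sources used here. The comparison, lists and tests were chosen with earlier results of these data known.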

Additional observations from a re-analysis of the deposited data

How the results depend on the processing

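Pseudocounts of 0.1 and 0.5 TPM, a looser and a stricter filter, median-of-ratios and quantile scaling and plain eBayes kept the counts of all 4 tests within 1.5 times. With all 20 chicken epidermis libraries in the fit, 1465 genes were called with stage as a term (12.5% of those tested), 940 at placode (8%), 375 at morphogenesis (3.19%) and 36 for the difference between stages (0.306%). The placode contrast called 534 genes (4.54%) against scutate scale of stage 40, and the morphogenesis contrast 58 genes (0.519%) from its 4 libraries alone. Leaving out 1 library called 1.62% to 4.16% of genes with stage as a term, 0.266% to 2.59% at placode, 0.12% to 0.962% at morphogenesis and 0% to 0.0859% for the difference. The causes were not tested. A term for the kind of listed total, chosen after seeing the data, gave 381 genes with stage as a term. The named genes kept their direction in all alternatives; 6 of their values missed the threshold under another setting and 12 when a library was left out. No paired analysis was possible because the reticulate and scutate libraries share no specimen number. Leaving out genes of the sex chromosomes was not run, since chromosomes are not given. Read depth is unknown, so low values have no detection limit.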

Other observations

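The 8 libraries fell into 2 kinds by the sum of their listed TPM, and each group held 1 library of each kind. The sums were 994044 to 996263 TPM in reticulate placode 1, reticulate morphogenesis 1, scutate placode 2 and scutate morphogenesis 1, and 999865 to 999891 TPM in the other 4. A term for this kind called 144 of the 11753 genes tested (limma, adjusted p under 0.05). Of these, 0 were called for scale, against 3.63% of all genes tested. In a fit without this term the division adds to the spread within groups, which works against a call for scale in such genes. The 0 is therefore given as a description only. In 10 genes all 4 libraries of the lower sum held at least 5 TPM and all 4 of the higher sum less than 1 TPM, and 0 genes showed the reverse. With 1 library of each kind in each group, the scales were balanced for this division.

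Full on and off contrasts between the scales were rare by the cutoffs used here. One gene reached 5 TPM in all 4 reticulate libraries and stayed under 1 TPM in all 4 scutate libraries, and 2 genes did the reverse. Neither gene of the leading reticulate pair is counted. ENSGALG00000012120 reached 1.11 TPM in a scutate library, and ENSGALG00000023155 reached 1.57 and 3.4 TPM.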
